A study of Mus musculus with 6 samples.

Results

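The 38 genes described here encode the machinery of glucose use and of the response to low oxygen in effector memory CD4+ T cells. They were chosen by name: 27 genes of glucose and lactate transport, glycolysis and the pyruvate dehydrogenase kinases, and 11 genes of the hypoxia-inducible factor (HIF) pathway. All 38 were found among the 34866 genes of the count table, and all 38 passed the filter on low counts that left 13374 genes to test. The cells were sorted alive from spleens of mice labelled Il1rnKO and of mice labelled WT, with 3 libraries in each group (Il1rnKO 1 to 3 and WT 1 to 3). Il1rn encodes the secreted antagonist of the interleukin-1 receptor, so the comparison asks what differs in these T cells when that brake on interleukin-1 is missing from the mouse. The sources used here do not give the allele, strain, age or sex of the mice, the markers of the sort gate, or whether each library was a separate animal. The p-values below therefore describe the spread between libraries, which may be technical.

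Glycolysis splits glucose into pyruvate. T cells that have been activated take up more glucose and turn much of the pyruvate into lactate even when oxygen is present, while resting and memory cells lean on mitochondrial respiration. HIF is a transcription factor made of an oxygen-regulated subunit, encoded by Hif1a, and a stable partner, encoded by Arnt. When oxygen is plentiful, prolyl hydroxylases of the EGLN family mark the HIF1A protein for the VHL ubiquitin ligase, which has it destroyed, so HIF activity is set largely at the protein level and only in part by the Hif1a transcript. Stabilised HIF binds short DNA words and raises many glycolytic genes.

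HIF recognises the core letters ACGTG or GCGTG. In the 250 bases before the RefSeq start of each gene, read on both strands in the build GRCm38.p6, 27 of the 34 members that have a promoter in the RefSeq table held at least 1 of these words (79.4%), against 42.1% of 20595 promoters of the same length. For ACGTG alone the figures were 17 of 34 members (50%) and 17.3% of all promoters. CACGTG, which other factors also read, contains ACGTG on both strands. No promoter was matched for Slc2a3, Bnip3l, Ndrg1 and Ero1l. The promoters of Pgk1, Ldha and Egln3 are printed because Pgk1 and Ldha were both highest in WT 3 and Il1rnKO 3 of their groups and because Egln3 had the smallest p of the 38 genes. Capitals mark ACGTG or GCGTG on either strand, and each sequence runs 5′ to 3′ along the gene's own strand. The Pgk1 window lies at chrX:106186850-106187099 (+ strand), Ldha at chr7:46845554-46845803 (+ strand) and Egln3 at chr12:54203875-54204124 (- strand).
Pgk1: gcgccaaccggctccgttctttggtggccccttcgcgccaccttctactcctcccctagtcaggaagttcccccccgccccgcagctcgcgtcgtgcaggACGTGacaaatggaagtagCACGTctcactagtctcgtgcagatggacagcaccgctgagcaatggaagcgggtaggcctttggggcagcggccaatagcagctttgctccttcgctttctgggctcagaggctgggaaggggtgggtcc
Ldha: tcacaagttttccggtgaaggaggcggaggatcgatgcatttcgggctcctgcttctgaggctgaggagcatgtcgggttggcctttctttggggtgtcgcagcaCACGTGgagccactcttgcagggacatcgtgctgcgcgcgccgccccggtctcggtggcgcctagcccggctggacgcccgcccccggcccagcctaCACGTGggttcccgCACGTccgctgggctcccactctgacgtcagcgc
Egln3: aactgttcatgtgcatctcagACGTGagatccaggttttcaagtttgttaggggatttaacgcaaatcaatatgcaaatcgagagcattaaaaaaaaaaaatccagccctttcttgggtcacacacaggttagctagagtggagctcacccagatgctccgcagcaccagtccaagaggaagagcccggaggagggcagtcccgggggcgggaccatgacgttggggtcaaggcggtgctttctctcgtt
The Ldha window held ACGTG 5 times, counting both strands, the Pgk1 window 2 times and the Egln3 window 1 time, and none of these windows held GCGTG. These are matches of letters and not shown to be binding sites.

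Library totals ran from 14102183 to 17677217 counts. Rounded counts of Il1rn itself were 6, 10 and 0 for WT 1 to 3, and for Il1rnKO 1 to 3 they were 1, 3 and 1, which is not enough to test the genotype against the labels. The 8 markers of CD4 T cells summed to 4754 to 5179 counts per 1000000 counts of the library (CPM) in WT and 5123 to 5333 CPM in Il1rnKO. Markers of other cells were scarcer, but several sums were higher in Il1rnKO. The 14 neutrophil markers summed to 4.33 to 7.35 CPM in WT and 44.1 to 114 CPM in Il1rnKO. The 9 B cell markers summed to 119 to 161 and 169 to 207 CPM. Ighm alone was at 107 to 123 and 129 to 151 CPM (scaled by edgeR's TMM factors). Of the 7 B cell markers tested, 5 had positive and 2 (Ms4a1 and Ebf1) negative log2 fold changes, Il1rnKO over WT. The 10 macrophage and monocyte markers summed to 5.39 to 13.1 and 17.6 to 25.1 CPM. Lyz2 among them was at 0.542 to 7.8 and 7.69 to 19.3 CPM with TMM factors. The 7 erythroid markers summed to 3.12 to 5.09 and 5.65 to 9.42 CPM. Of the 4 tested, 3 were positive and 1 (Hba-a2) negative. Dendritic cell markers (3.33 to 5.15 and 3.37 to 9.75 CPM) and CD8 T and NK cell markers (12.2 to 16.5 and 11.6 to 20.5 CPM) overlapped between the groups. The neutrophil genes Ngp, Ly6g, Mmp8 and Elane had 0 counts in every WT library, as did C1qa, C1qb, Clec9a and Slc4a1, while Klra8 had 0 in all 6 libraries. These sums are per plain library total, and the part that such cells play in the values of the 38 genes was not tested.

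No difference between Il1rnKO and WT was detected in any of the 38 genes. By edgeR's quasi-likelihood test with Benjamini-Hochberg adjustment over 13374 genes, 0 of 27 transport and enzyme genes and 0 of 11 HIF pathway genes passed an adjusted p of 0.05, beside 7 genes, or 0.0523%, of all genes tested (0.0299% higher and 0.0224% lower in Il1rnKO). The smallest adjusted p among the 38 was 0.988. At an unadjusted p under 0.05 there were 2 of the 38 (Egln3 and Slc16a1), against 4.08% of all genes tested. DESeq2, which called 22 genes or 0.164% in all, and limma voom with quality weights also called 0 of the 38. The median log2 fold change, Il1rnKO over WT, was 0.00 for the transport and enzyme genes (14 positive, 13 negative), -0.11 for the HIF pathway genes (4 positive, 7 negative) and 0.02 for all genes tested.

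How large a difference the data could hide depended on the level of the gene. The 95% interval of the fold change lay within 2-fold in either direction for 30 of the 38 genes and within 1.5-fold for 17. Of the 8 genes with wider intervals, Egln3 was the only one with a mean above 10 CPM in either group, and the other 7 (Hk2, Pfkfb4, Aldoc, Eno2, Slc16a3, Pdk2 and Bnip3) had means of 1.61 to 6.73 CPM. For Aldoa, the aldolase that splits the phosphorylated sugar into its pair of triose phosphates, the interval of the fold was 0.799 to 1.24, and for Gpi1, glucose-6-phosphate isomerase, 0.801 to 1.25. For Aldoc, a second aldolase, it was 0.274 to 2.21.

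**Figure D1:**
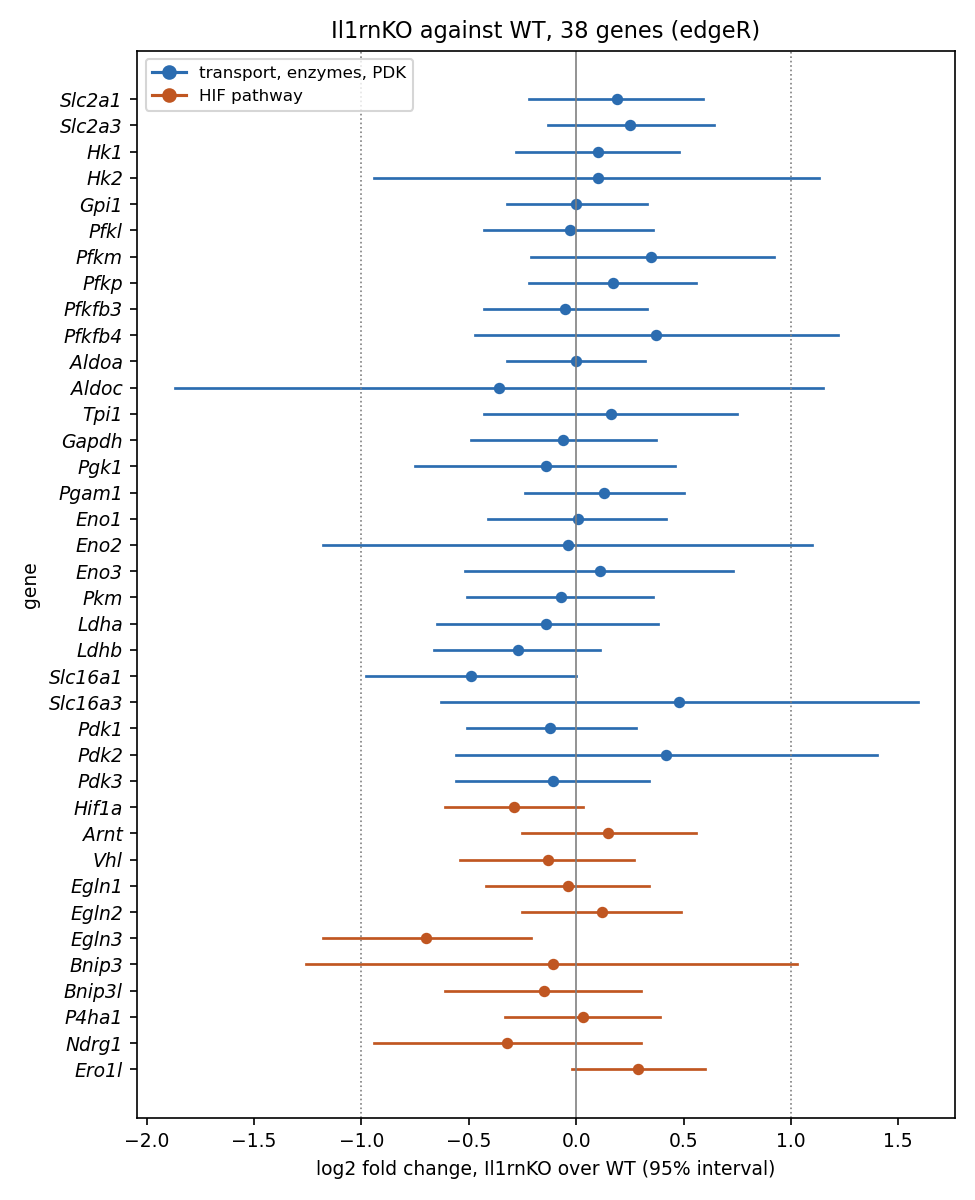
Log2 fold change of each of the 38 genes, Il1rnKO over WT, from edgeR (points) with its 95% interval (lines); the x axis is in log2 units, and the dotted lines mark a 2-fold difference. The intervals of 36 genes include 0, and those of Egln3 and Slc16a1 lie below it, though neither gene passed after adjustment.

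The glucose transporters were expressed in all 6 libraries, with knockout values within or above the wild-type range. Slc2a3, the high-affinity transporter GLUT3, was at 79, 84.1 and 72.7 CPM (scaled by edgeR's TMM factors, as all gene values in CPM from here on) in WT 1, 2 and 3 and at 88.2, 116 and 77.2 CPM in Il1rnKO 1, 2 and 3. Its log2 fold change was 0.25 (SE 0.17), and this came to 0.05 without Il1rnKO 2, the library with the highest value. Slc2a1, the widely expressed GLUT1, was at 44.1, 44.2 and 37.5 CPM in WT and 59.7, 40.3 and 43.4 CPM in Il1rnKO 1, 2 and 3. The groups overlapped for both transporters; for Slc2a1 the log2 fold change was 0.19 (SE 0.18), and -0.03 without Il1rnKO 1.

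In the upper part of the pathway, which spends ATP to prime glucose, 7 of 11 genes had positive log2 fold changes and none passed the test. Hk1, the hexokinase that traps glucose inside the cell, was at 166, 136 and 134 CPM in WT 1, 2 and 3 and at 188, 133 and 147 CPM in Il1rnKO 1, 2 and 3. Hk2, the hexokinase that activated T cells induce, was scarce in every library, at 2.25 to 4.76 CPM in WT and 3.08 to 3.84 CPM in Il1rnKO. Pfkp, the platelet-type phosphofructokinase that commits the sugar to glycolysis, was at 187, 190 and 146 CPM in WT and 203, 226 and 160 CPM in Il1rnKO 1, 2 and 3. The ranges of these 3 genes overlapped between the groups, and the log2 fold changes were 0.10 (SE 0.17), 0.10 (SE 0.47) and 0.17 (SE 0.17).

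The muscle-type enzyme Pfkm was at 15.1, 9.71 and 13.5 CPM in WT 1, 2 and 3 and at 17.8, 18.8 and 12.2 CPM in Il1rnKO 1, 2 and 3. Il1rnKO 1 and 2 lay above every WT library, and Il1rnKO 3 lay among them. Its log2 fold change was 0.35 (SE 0.25), and 0.11 with the mitochondrial share of each library as a covariate. The liver-type enzyme Pfkl was at 50.5 to 72.6 CPM in WT and 52.2 to 65.1 CPM in Il1rnKO. Pfkfb3 and Pfkfb4 encode enzymes that make and remove the main activator of phosphofructokinase. Pfkfb3 was at 79.7, 55.1 and 75.5 CPM in WT and 72.8, 67.7 and 62.5 CPM in Il1rnKO 1, 2 and 3, and Pfkfb4 at 6.32, 4.08 and 5.19 CPM in WT and 9.51, 6.54 and 4.15 CPM in Il1rnKO 1, 2 and 3. Il1rnKO 1 and 2 were highest for Pfkfb4, while Il1rnKO 3 was near the lowest wild-type value. Its log2 fold change was 0.37 (SE 0.38) and came to -0.03 with the mitochondrial share as a covariate.

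Aldoa was among the steadiest of these genes across libraries, at 297, 270 and 298 CPM in WT 1, 2 and 3 and 301, 264 and 299 CPM in Il1rnKO 1, 2 and 3, with a mean of 288 CPM in each group (SD 16 and 20.8, n = 3). Gpi1 had a mean of 270 CPM in each group as well (SD 26.7 and 12.8, n = 3). Tpi1, triose phosphate isomerase, was at 28.9 to 43.5 CPM in WT and at 29.5, 34.9 and 60.6 CPM in Il1rnKO 1, 2 and 3, so that Il1rnKO 3 alone stood above the wild-type range. Aldoc was at 0.641 to 2.79 CPM over the 6 libraries.

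The lower part of the pathway, which yields ATP and pyruvate, had log2 fold changes between -0.14 and 0.13 in all 7 genes. Pkm, pyruvate kinase, was at 553, 555 and 700 CPM in WT 1, 2 and 3 and 515, 488 and 714 CPM in Il1rnKO 1, 2 and 3; its splice forms cannot be told apart in counts per gene. Eno1, the enolase of most tissues, was at 176, 198 and 230 CPM in WT and 181, 170 and 255 CPM in Il1rnKO 1, 2 and 3. Pgk1, phosphoglycerate kinase, was at 143, 167 and 219 CPM in WT and 119, 119 and 240 CPM in Il1rnKO 1, 2 and 3. In each of these genes WT 3 and Il1rnKO 3 had the highest CPM of their groups. The spread of CPM within a group was wider than the difference between group means. Both statements depend on the scaling. In TPM, a scale explained below with Ldhb, Eno1 was at 184 to 189 in WT and 212 to 214 in Il1rnKO. Pkm was highest in WT 1 (493 TPM) and Il1rnKO 2 (509 TPM) of their groups. Pgk1 stayed highest in WT 3 (201 TPM) and Il1rnKO 3 (222 TPM).

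Gapdh, the dehydrogenase often used as a reference gene, was at 213, 251 and 278 CPM in WT and 199, 209 and 304 CPM in Il1rnKO 1, 2 and 3 (log2 fold change -0.06, SE 0.19). Pgam1, phosphoglycerate mutase, was at 68.4 to 89.5 CPM in WT and 73 to 96.4 CPM in Il1rnKO. Of the minor enolases, Eno3, the muscle form, was at 12.9 to 18.1 and 10.7 to 21.9 CPM, and Eno2, the neuronal form, at 2.03 to 6.19 and 2.29 to 5.32 CPM in WT and Il1rnKO.

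**Figure D2:**
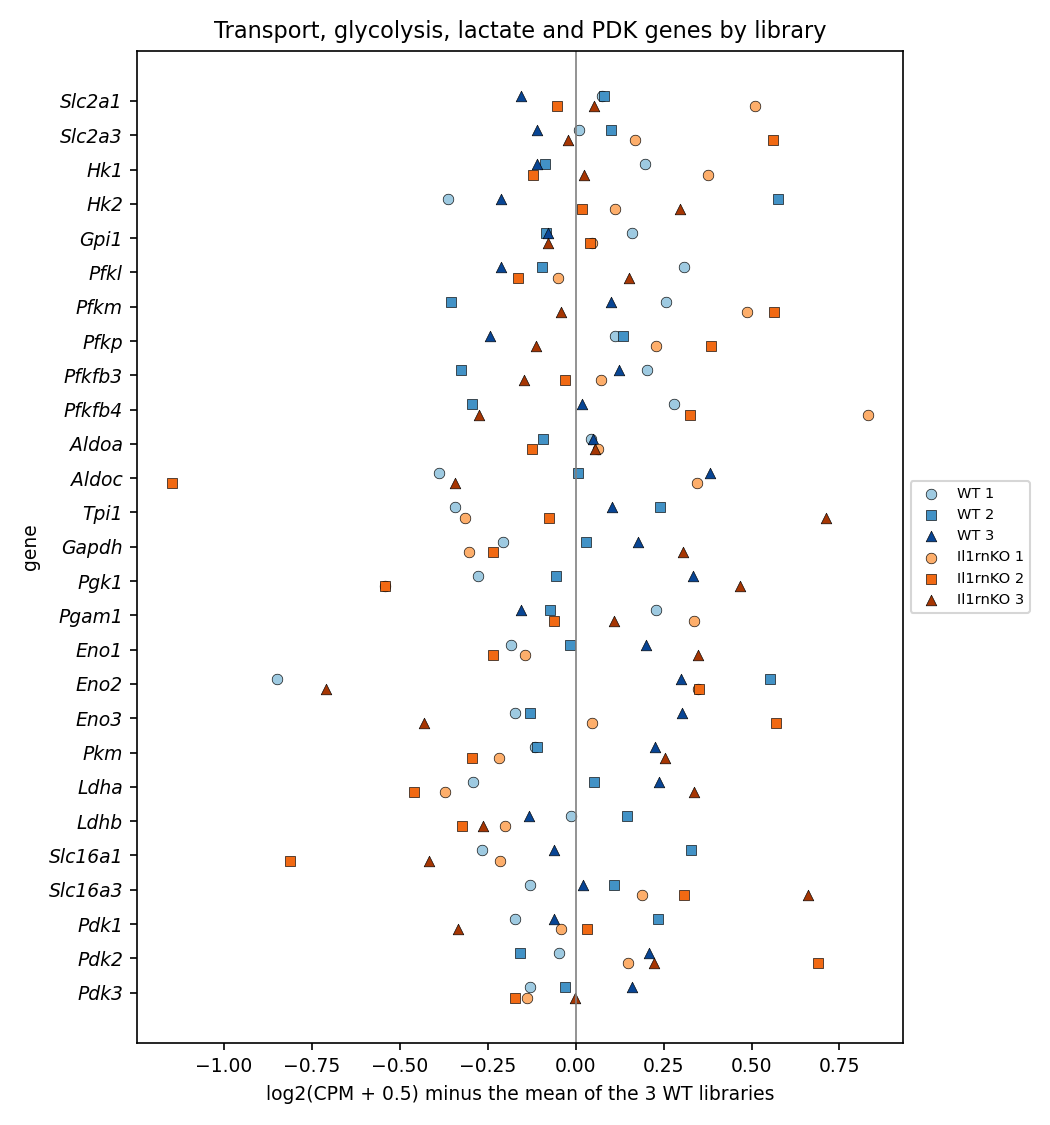
Log2 of CPM plus 0.5 for each of the 27 transport, glycolysis, lactate and pyruvate dehydrogenase kinase (PDK) genes in each library, relative to the mean of the 3 WT libraries (x axis, log2 units); blue symbols are WT and orange symbols Il1rnKO. Triangles (WT 3 and Il1rnKO 3) lie to the right for Gapdh, Pgk1, Eno1, Pkm and Ldha in both groups, and Ldhb and Slc16a3 alone have groups that do not overlap.

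Among the lactate genes the 2 directions were mixed, and the monocarboxylate transporters lay on opposite sides. Ldha encodes the subunit of lactate dehydrogenase that favours making lactate, and it was at 327, 415 and 472 CPM in WT 1, 2 and 3 and 309, 291 and 505 CPM in Il1rnKO 1, 2 and 3. Its groups overlapped widely, and its log2 fold change was -0.14 (SE 0.23). Ldhb, the subunit that favours using lactate, was at 23.3, 26.1 and 21.4 CPM in WT and 20.4, 18.7 and 19.5 CPM in Il1rnKO 1, 2 and 3. Every knockout library lay below every wild-type library for Ldhb, with a log2 fold change of -0.27 (SE 0.17). Transcripts per 1000000 (TPM) divide counts by transcript length and scale within each library. The length of a gene is the same in every library, so between libraries TPM differ from CPM in the scaling alone. In TPM the Ldhb ranges overlapped, at 27.4 to 38.8 in WT and 25.2 to 37.4 in Il1rnKO. Over all genes tested, 3.63% had knockout values wholly below and 5.78% wholly above the wild-type range, 9.41% in all.

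Slc16a1, the transporter MCT1, which carries lactate in either direction, was at 24.5, 37.2 and 28.3 CPM in WT 1, 2 and 3 and 25.4, 16.6 and 22 CPM in Il1rnKO 1, 2 and 3. The groups overlapped through WT 1 and Il1rnKO 1. The mean was 30 ± 6.51 CPM in WT and 21.3 ± 4.43 CPM in Il1rnKO (SD, n = 3), a fold of 0.711 with an interval of 0.508 to 0.997. By edgeR the log2 fold change was -0.49 (SE 0.22, unadjusted p = 0.0482, adjusted p = 0.988), and it was -0.31 without WT 2. Slc16a3, the transporter MCT4, a HIF target that exports lactate from strongly glycolytic cells, was at 1.76, 2.17 and 2.01 CPM in WT and 2.32, 2.56 and 3.41 CPM in Il1rnKO 1, 2 and 3. The groups did not overlap for Slc16a3, on 26 to 55 counts per library, and its log2 fold change was 0.48 (SE 0.50).

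The pyruvate dehydrogenase kinases, which shut pyruvate out of the mitochondrion by switching off pyruvate dehydrogenase, had overlapping groups. Pdk3 was at 13.5, 14.5 and 16.6 CPM in WT 1, 2 and 3 and 13.4, 13.1 and 14.8 CPM in Il1rnKO 1, 2 and 3. Pdk1, the kinase best known as a HIF target, was at 30.8 to 41 CPM in WT and 27.5 to 35.6 CPM in Il1rnKO, a log2 fold change of -0.12 (SE 0.18). Pdk2 was at 2.41 to 3.25 and 3.1 to 4.74 CPM, with 0.42 (SE 0.44).

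Of the HIF subunits, Hif1a was lower in every knockout library in TMM-scaled CPM, but not in TPM, and did not pass the test. It was at 379, 387 and 364 CPM in WT 1, 2 and 3 and at 314, 327 and 282 CPM in Il1rnKO 1, 2 and 3, means of 377 ± 11.8 and 308 ± 23.1 CPM (SD, n = 3). The highest knockout value lay below the lowest wild-type value. The gap between them was wider than the range within WT but narrower than the range within Il1rnKO. By edgeR the log2 fold change was -0.29 (SE 0.15, unadjusted p = 0.0725, adjusted p = 0.988), and over 15 alternative fits it ran from -0.37 to -0.24. Hif1a was at 174, 155 and 129 TPM in WT 1, 2 and 3 against 159, 175 and 101 in Il1rnKO 1, 2 and 3. On that scale the groups overlapped and Il1rnKO 2 was the highest library. Arnt, its partner, was at 46.4 to 70.6 CPM in WT and 56.3 to 71.5 CPM in Il1rnKO, with 0.15 (SE 0.18). Vhl, which encodes the recognition part of the ligase that removes HIF1A, was at 23.3 to 31.4 and 21.3 to 27.5 CPM, with -0.13 (SE 0.18).

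Egln3, a prolyl hydroxylase that HIF itself induces, had the smallest p of all 38 genes. It lies on chromosome 12 from 54178981 to 54203860 (GRCm38; ENSMUSG00000035105.5) and had 342, 334 and 261 counts in WT 1, 2 and 3 against 189, 168 and 252 in Il1rnKO 1, 2 and 3. Scaled, these were 18.8, 20.7 and 20.2 CPM in WT and 10.4, 10.8 and 15.6 CPM in Il1rnKO. All knockout libraries lay below all wild-type libraries, and Il1rnKO 3 was the nearest to them. The mean was 19.9 ± 0.979 CPM in WT and 12.3 ± 2.9 CPM in Il1rnKO (SD, n = 3), a fold of 0.618 with an interval of 0.44 to 0.867. By edgeR the log2 fold change was -0.70 (SE 0.22, unadjusted p = 0.00976), with an adjusted p of 0.988 over all genes tested. The value was -0.91 without Il1rnKO 3 (edgeR adjusted p = 0.143) and -0.52 with the mitochondrial share as a covariate, the ends of its range over 15 alternatives. In sorted bulk cells, fewer cells that carry a transcript and less of it in each cell cannot be told apart. The neutrophil, B cell, macrophage and monocyte, and erythroid marker sums given above were higher in the same 3 libraries, and their part in the Egln3 and Hif1a values was not tested.

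The other prolyl hydroxylases showed no such separation. Egln1, the main oxygen sensor of most cells, was at 86.2, 86.2 and 64.4 CPM in WT 1, 2 and 3 and 88.7, 72.4 and 69.6 CPM in Il1rnKO 1, 2 and 3, with a log2 fold change of -0.04 (SE 0.17). Egln2 was at 52.8, 53.7 and 64.1 CPM in WT and 72.2, 53.1 and 60.2 CPM in Il1rnKO 1, 2 and 3, with 0.12 (SE 0.17). Whether the value of Egln3 differed from theirs was tested only as a share: its share of the 3 hydroxylases is given with the other families.

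**Figure D3:**
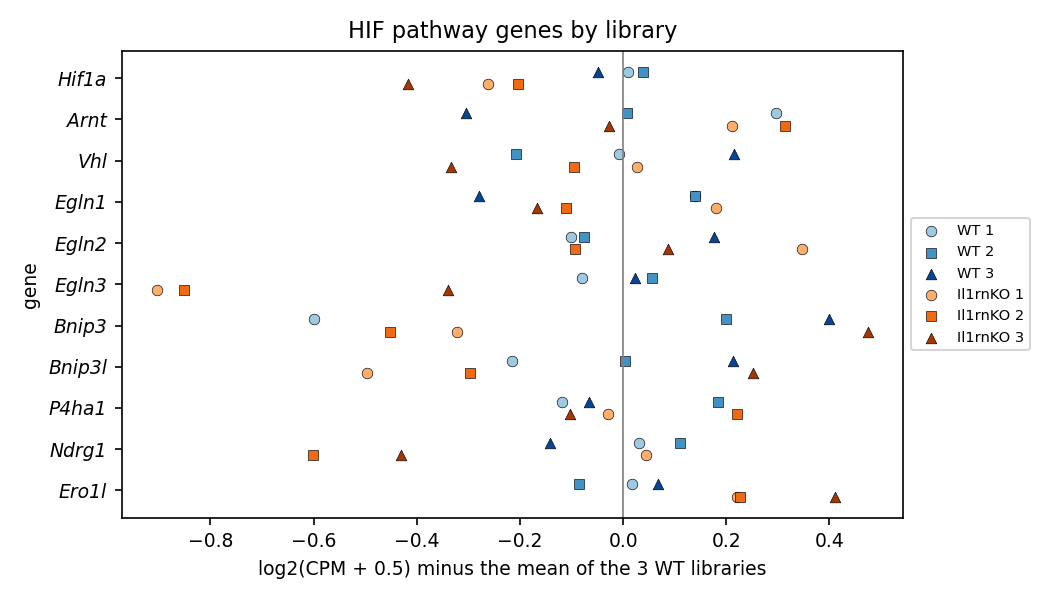
Log2 of CPM plus 0.5 for the 11 HIF pathway genes in each library, relative to the mean of the 3 WT libraries (x axis, log2 units), with symbols as for the enzymes. The knockout values of Hif1a and Egln3 lie wholly to the left of the wild-type ones and those of Ero1l wholly to the right, while the other 8 genes overlap.

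The HIF targets did not share a direction. Ero1l, which encodes the oxidase that forms disulfide bonds in the endoplasmic reticulum, was at 63.6, 59.2 and 65.8 CPM in WT 1, 2 and 3 and at 73.3, 73.6 and 83.7 CPM in Il1rnKO 1, 2 and 3. Its knockout libraries were all above the wild-type range, with a log2 fold change of 0.29 (SE 0.14, edgeR unadjusted p = 0.0668, adjusted p = 0.988). Bnip3l, a receptor for mitophagy also called NIX, was at 164, 191 and 221 CPM in WT and 135, 155 and 227 CPM in Il1rnKO 1, 2 and 3. WT 3 and Il1rnKO 3 were its highest libraries, as for Pgk1, and its log2 fold change was -0.15 (SE 0.21). Bnip3, its relative, was at 1.92 to 4.33 and 2.18 to 4.59 CPM in WT and Il1rnKO. P4ha1, a collagen prolyl hydroxylase subunit, was at 45.5 to 56.2 and 46 to 57.7 CPM, and Ndrg1, a stress-responsive gene, at 10, 10.6 and 8.82 CPM in WT and 10.1, 6.28 and 7.13 CPM in Il1rnKO 1, 2 and 3, with -0.32 (SE 0.28).

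In all, 5 of the 38 genes had groups that did not overlap in TMM-scaled CPM (Ldhb, Hif1a and Egln3 lower, Slc16a3 and Ero1l higher), beside the 9.41% of all genes tested. In TPM the groups of Ldhb and Hif1a overlapped, and those of the other 3 did not: Egln3 was at 12.7 to 15.3 in WT and 9.38 to 10.3 in Il1rnKO, Ero1l at 24.9 to 31.2 and 32 to 42.2, and Slc16a3 at 0.775 to 0.944 and 1.28 to 1.5. Eno1, Pkm and Gapdh overlapped in CPM, but in TPM their knockout values lay wholly above the wild-type ones. Eno1 was at 184 to 189 TPM in WT and 212 to 214 in Il1rnKO. Pkm was at 431 to 493 and 495 to 509 TPM, and Gapdh at 325 to 334 and 335 to 372 TPM. The share of all genes tested whose groups do not overlap in TPM was not computed. For 31 of the 38, the range within each group on the log2 scale of CPM exceeded the difference between the group means.

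To set genes against each other, counts were divided by the length of the principal transcript and scaled to TPM within each library. The order in WT was led by Pkm at 468 ± 32.7, Ldha at 430 ± 25.3, Aldoa at 364 ± 53.5 and Gapdh at 329 ± 5.12 TPM (SD, n = 3). The ranges of Pkm and Ldha, of Ldha and Aldoa, and of Aldoa and Gapdh overlapped in WT, so these neighbours are not separated. Eno1 at 187 ± 2.76, Pgk1 at 181 ± 17, Gpi1 at 180 ± 41 and Hif1a at 152 ± 22.8 TPM followed, each overlapping the next. Among all genes Pkm ranked 254 and Hif1a 826 by mean TPM in WT. At the low end Aldoc, Hk2 and Slc16a3 were at 1.39 ± 0.279, 1.1 ± 0.467 and 0.866 ± 0.0851 TPM. The ranges of Aldoc and Hk2, and of Hk2 and Slc16a3, overlapped in WT, while that of Pdk2, next above Aldoc, did not overlap Aldoc. The order depends on the transcript length assumed: with the length of the union of exons Ldha came first at 317 and Pkm second at 314 TPM, Pgk1 was at 203 and Hif1a at 169 TPM, while Gapdh was at 156 TPM (rank 6) and Eno1 at 97.5 TPM (rank 10). With principal transcripts the same 5 genes headed the order in Il1rnKO, and Egln3 moved from rank 26 among the 38 in WT to rank 30.

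In most families a single gene supplied most of the length-scaled level, in both groups. Aldoa made up 99.6% ± 0.123 of the aldolase level in WT and 99.7% ± 0.179 in Il1rnKO (SD, n = 3). Hk1 made up 98.5% of the hexokinase level in both groups, Bnip3l 97% and 96.9% of the BNIP3 pair, Ldha 92.5% and 92.9% of lactate dehydrogenase, Pfkfb3 91% and 88.6% of the bifunctional enzymes and Eno1 90.1% and 89% of the enolases. Phosphofructokinase was a mixture, with Pfkp at 67.4% ± 3.76, Pfkl at 25.4% ± 2.42 and Pfkm at 7.18% ± 1.75 in WT (SD, n = 3). With the length of the union of exons these were 50.7, 34.4 and 14.9%, and Eno1 was at 80% of the enolases. Slc2a3 and Slc2a1 were at 60.7% and 39.3% of the 2 glucose transporters in WT, but with the union length Slc2a1 was the larger at 52.4%, so their order depends on the transcript assumed.

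Differences in share between the groups were few and none could pass, since an exact permutation test of 3 against 3 libraries cannot go below p = 0.1. Egln3 supplied 12.6, 13.6 and 13.6% of the prolyl hydroxylase level in WT 1, 2 and 3 against 6.24, 8.19 and 10.9% in Il1rnKO 1, 2 and 3. These groups did not overlap (exact two-sided permutation p = 0.1, the smallest possible). Slc16a1 supplied 93.2, 94.4 and 93.2% of the pair of lactate transporters in WT and 91.5, 86.4 and 86.3% in Il1rnKO 1, 2 and 3, the rest being Slc16a3 (exact permutation p = 0.1). Pdk2 supplied 8.72, 6.79 and 9.2% of the 3 kinases in WT and 9.69, 13.9 and 10.6% in Il1rnKO 1, 2 and 3 (exact permutation p = 0.1), on 39 to 74 counts per library. For the other members of the 11 families the groups overlapped. Under random labels any single share reaches this permutation p with probability 0.1, and 11 families were looked at. Egln3 and Slc16a1 are also the 2 genes with an unadjusted edgeR p under 0.05, so their shares rest on the same counts and add no separate evidence.

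**Figure D4:**
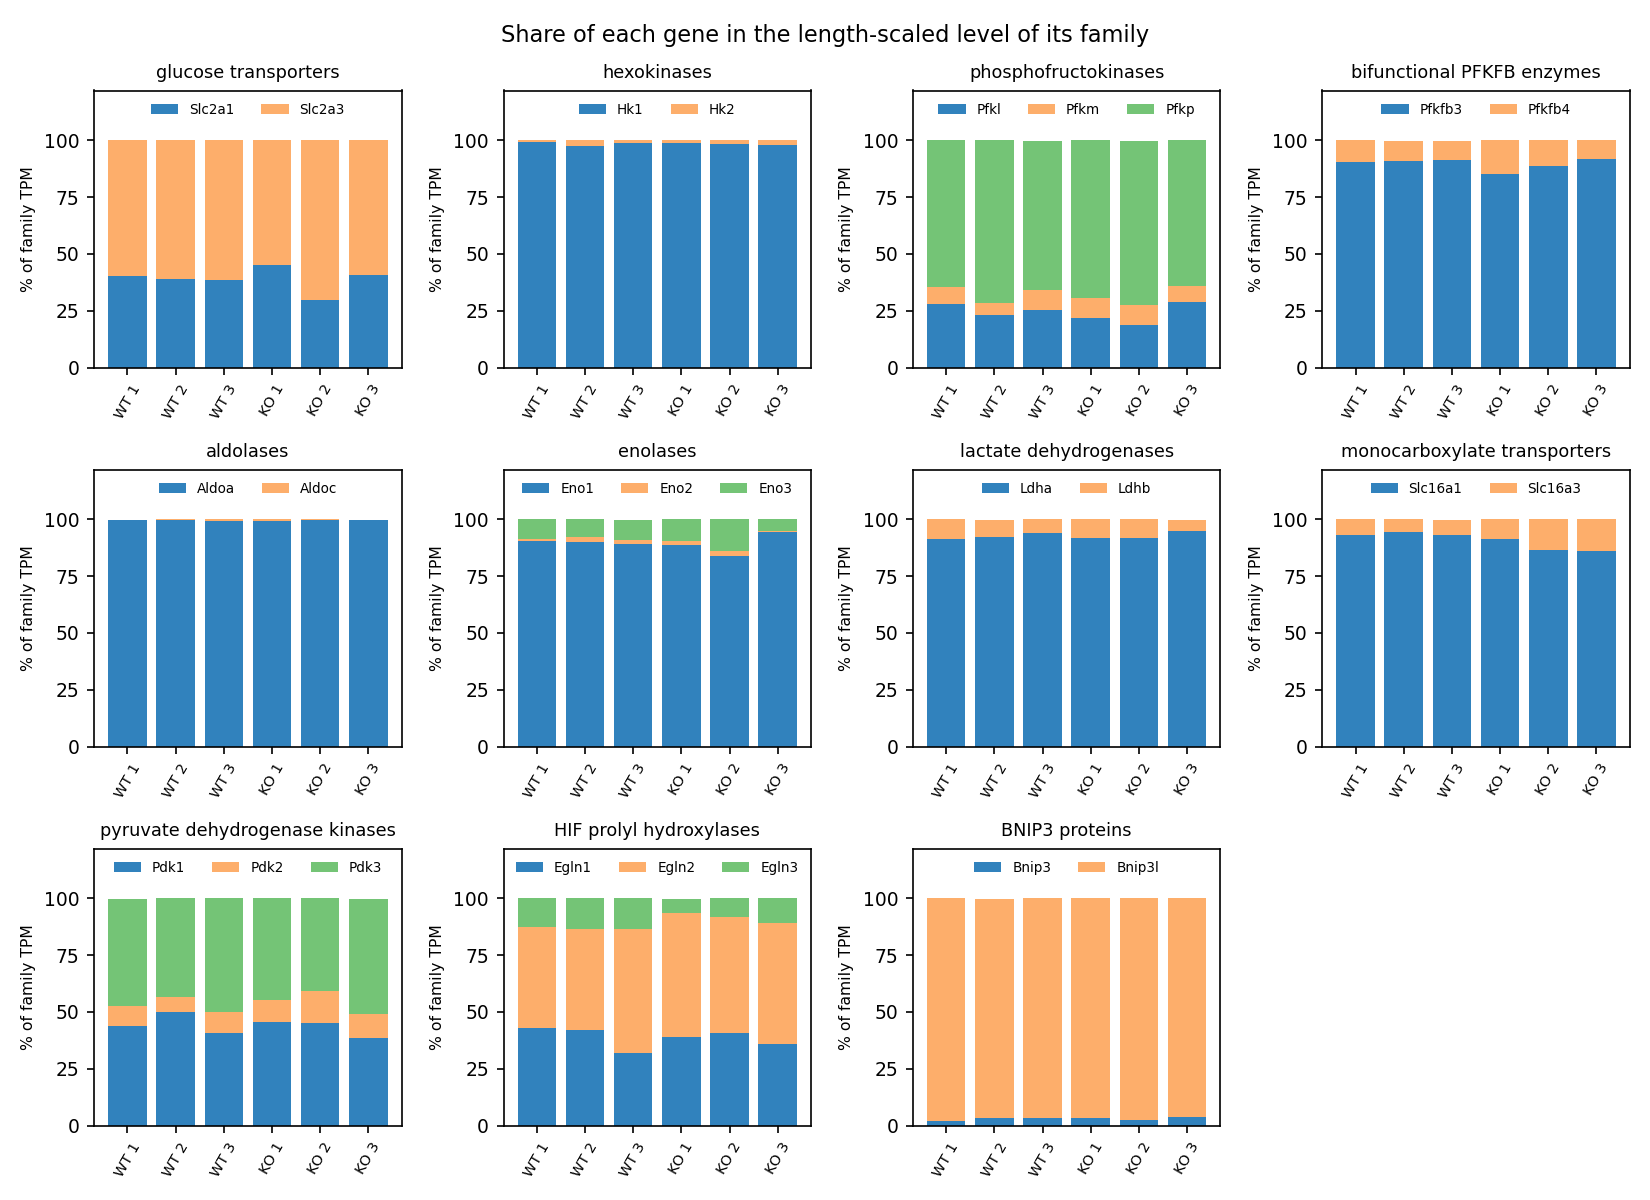
Share (y axis, % of the summed TPM of the family) of each gene within 11 families in each library; KO stands for Il1rnKO, and the colours name the genes in each panel. Families hold only genes among the 38 described here. Aldoa, Hk1 and Bnip3l fill theirs in all 6 libraries, and the Egln3 segment is 12.6 to 13.6% in WT and 6.24 to 10.9% in Il1rnKO.

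For 4 glycolytic genes, genes elsewhere in the genome that share part of their sequence also had a sizeable number of counts. A near copy was taken as a gene outside the member that holds at least 10% of the 75-base words of its principal transcript. For Gapdh, 63.1% of the counts of the gene and its copies together lay in the copies, 39744 against 23281 over the 6 libraries. A single processed pseudogene, Gm13394 (chromosome 2, 28933610 to 28934609), held 5348, 5164 and 4800 counts in WT 1, 2 and 3 against 5388, 3962 and 7741 in Il1rnKO 1, 2 and 3, more than Gapdh itself in every library. For Eno1, 50.1% lay in the protein-coding copy Eno1b and a pseudogene, for Pgk1 8.89% and for Pgam1 8.46%. Whether reads of 1 transcript were divided among such copies or the copies are themselves transcribed was not tested, so the single values and the ranks of these 4 genes are uncertain. Pfkm, Pfkp, Gapdh, Tpi1 and Egln2 also overlap a gene on the opposite strand that has counts (Senp1, Pitrm1, Iffo1, Spsb2 and Cyp2t4), and the use of strand in counting is not known here.

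Summed with its copies, Gapdh was at 595, 648 and 706 CPM in WT 1, 2 and 3 and 569, 516 and 883 CPM in Il1rnKO 1, 2 and 3, and the log2 fold change went from -0.06 to 0.01 (SE 0.22). Eno1 summed with its copies was at 401 ± 56.2 CPM in WT and 407 ± 120 CPM in Il1rnKO (SD, n = 3), with 0.02 (SE 0.22), and Pgk1 and Pgam1 had -0.11 (SE 0.27) and 0.09 (SE 0.17). None of the 38 genes passed with these sums, and Il1rnKO 3 stayed the highest library for Gapdh, Eno1 and Pgk1. This sum was chosen after the data were seen.

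**Figure D5:**
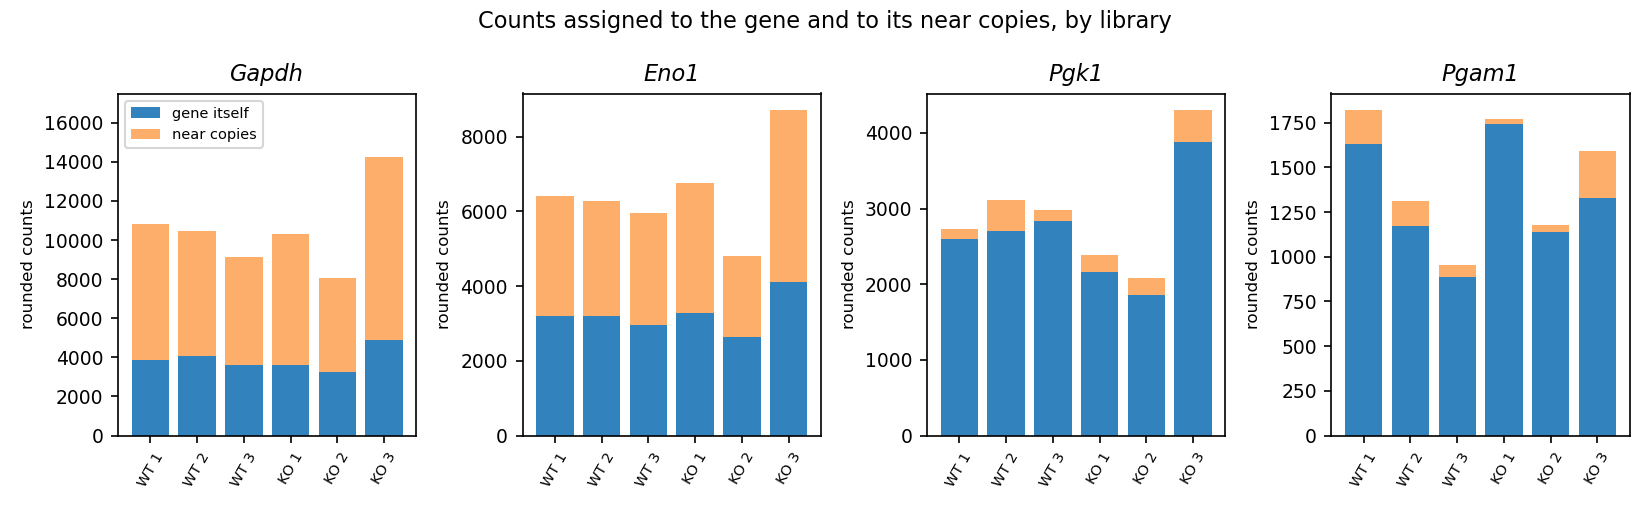
Rounded counts (y axis) assigned to Gapdh, Eno1, Pgk1 and Pgam1 themselves (blue) and to their near copies (orange) in each library; KO stands for Il1rnKO. Copies hold 59.6 to 65.6% of the Gapdh total and 44.8 to 52.8% of the Eno1 total in every library, and 1.52 to 16.5% of the Pgam1 total.

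Libraries of the same group differed in their mitochondrial and ribosomal protein shares, and some of the 38 genes followed the same order. The share of counts from the 13 mitochondrial genes was 5.68, 7.32 and 8.92% for WT 1, 2 and 3 and 3.69, 3.44 and 8.34% for the knockout libraries in the same order. The share from 84 ribosomal protein genes was 5.12, 5.78 and 7.31% for WT and 4.22, 3.92 and 7.44% for Il1rnKO. WT 3 and Il1rnKO 3 were thus the libraries of their groups with the highest shares of both. Of the lower pathway genes, 4 of 7 (Gapdh, Pgk1, Eno1 and Pkm) also had their highest CPM of each group in these libraries, as did Ldha, Pdk3, Bnip3, Bnip3l and Ero1l, making 9 of the 38 (23.7%) beside 21.3% of all genes tested. The opposite order, lowest in WT 3 and Il1rnKO 3, held for Slc2a3, Pfkp, Hif1a, Arnt and Egln1, 5 of the 38 (13.2%) beside 20.6% of all genes tested. The other 3 lower pathway genes did not follow the first order: Pgam1 was lowest of its group in WT 3, and Eno2 and Eno3 were lowest in Il1rnKO 3. Both shares of the 38 are thus close to or below the background, and 0 of the 11 upper pathway genes had the first order. The part that mitochondrial share or RNA quality plays in these values was not tested.

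For Pgk1, Ldha and Bnip3 the library difference was larger than that of genotype. Pgk1 in Il1rnKO 3 was 1.01 log2 units above the mean of Il1rnKO 1 and 2, and in WT 3 it was 0.50 above that of WT 1 and 2, whereas the group means differed by -0.21 on the same scale. For Ldha the 3 values were 0.75, 0.36 and -0.17, and for Bnip3, on low counts, 0.86, 0.60 and -0.10. Tpi1, whose highest wild-type library was WT 2 and which is not among the 9, had 0.91, 0.16 and 0.11. Without Il1rnKO 3 the edgeR log2 fold change of Pgk1 was -0.57 (adjusted p = 0.215) and that of Ldha -0.43 (adjusted p = 0.315). With the mitochondrial share as a covariate it was 0.24 for Pgk1 (edgeR adjusted p = 0.783), 0.18 for Ldha (0.824) and 0.48 for Tpi1 (0.778). The sign for Pgk1 and Ldha thus differed between these fits, and no fit called either gene.

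The rest of the pathway gave 0 calls as well. Of 30 further genes of glycolysis and pyruvate entry, 23 were tested and 0 passed (median log2 fold change 0.01); the smallest p were those of Tigar, which lowers the activator of phosphofructokinase, at 16.4 ± 2.85 CPM in WT and 23 ± 2 CPM in Il1rnKO (SD, n = 3; log2 fold change 0.48, SE 0.20), and Pdp1, the phosphatase that opposes the PDK enzymes, with -0.51 (SE 0.29). All 7 genes of the pentose phosphate branch were tested and 0 passed (median -0.03), with Pgd at 0.19 (SE 0.15) and Rpe at -0.33 (SE 0.26). All 13 further HIF pathway genes were tested and 0 passed (median 0.03), with Epas1, which encodes the HIF2A subunit, at 0.38 (SE 0.29) and Eloc at -0.26 (SE 0.25).

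Of 26 further HIF targets 22 were tested and 0 passed (median -0.09), with Insig2 at 0.36 (SE 0.21) and Nfil3 at -0.33 (SE 0.21). Of 14 genes that drive glycolysis in T cells 0 passed (median 0.03). Irf4, a factor induced by the T cell receptor, was at 101, 111 and 64.6 CPM in WT 1, 2 and 3 and 65.7, 64.9 and 62.8 CPM in Il1rnKO 1, 2 and 3, with -0.52 (SE 0.20) and groups that overlapped through WT 3. Rptor, the partner that defines mTOR complex 1, had -0.29 (SE 0.17). In these 5 lists there were 1, 0, 0, 0 and 1 genes at an unadjusted p under 0.05, and DESeq2 called 0 in each.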

How the data were processed

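RNA of sorted splenic effector memory CD4+ T cells was poly(A)-selected, made into strand-keeping libraries and read from both ends, per the labels' protocols. The authors deposited estimated counts per gene, not scaled, of which 20.7% have decimals; their genome build is named GRCm38 in the submitters' processing notes. No source used here names the aligner or the counting program, or says how strand was used, so reads of overlapping or near-identical genes may be divided by an estimate.

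Counts were rounded. Symbols, coordinates and lengths came from GENCODE M21 (34582 identifiers matched without version, 284 did not). A second feature named Aldoa, with 0 to 4 counts, was not used. Il1rnKO and WT were compared in R 4.3.3 with edgeR 4.0.16: filterByExpr (minimum count 10, minimum total 15), TMM, and the two-sided quasi-likelihood test, Benjamini-Hochberg adjusted over 13374 genes, threshold 0.05; log2 fold changes are Il1rnKO over WT, with the standard error (SE). Alternatives used DESeq2 1.42.0, limma 3.58.1 voom and other settings. The fits were tested on simulated data. Shares within families used scipy 1.17.1. Same-numbered libraries deviated together with correlations of 0.108, 0.053 and 0.116, so replicate numbers were not taken as pairs.

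The genes and lists were chosen with earlier results of these data known. Values per library are given for the 12 genes with the smallest p and the most abundant gene of each family, and in each other list the 2 genes with the smallest p are named. Depth was 14102183 to 17677217 counts per library.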

Additional observations from a re-analysis of the deposited data

How the results depend on the processing

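None of the genes tested among the 38 passed under any of the 15 alternatives (a stricter filter left 36); the smallest adjusted p was 0.143, for Egln3 without Il1rnKO 3. Of the 12 genes with the smallest p, 9 kept their direction in every fit they entered. Slc2a1 ran from -0.028 (without Il1rnKO 1) to 0.270 with a library left out, and with the mitochondrial share as a covariate Pfkfb4 came to -0.034 and Pfkp to -0.039; the cause was not tested. The median log2 fold change of the HIF pathway genes, -0.112, was -0.004 with limma voom and quality weights, and -0.181 to -0.020 with a library left out. That of the enzymes was 0.003, and -0.026 to 0.044 with a library left out; 0 enzymes and 0 HIF pathway genes were called with a library left out.

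Over all genes, 58 were called with no filter, 22 with DESeq2, 11 with limma voom and quality weights, 11 with the replicate block, 14 with the mitochondrial share as a covariate, and 3 to 10 with a library left out, against 7. The replicate block is a fit by library number; it called none of the 38 genes (smallest adjusted p 0.454, for Egln3), and the numbers do not show pairing. For scarce genes such as Hk2, Aldoc, Eno2 and Bnip3 the interval reaches beyond 2-fold, so a difference of that size lies within the error.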
